A study of Mus musculus with 8 samples.

Results

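Bone morphogenetic proteins (BMPs) are secreted ligands of the TGF-beta family. They bind pairs of receptor kinases at the cell surface, which phosphorylate SMAD proteins, and the SMADs switch on target genes such as those of the ID family. In the kidney Bmp7 is made by podocytes and by tubule cells and is needed for nephron formation, while endothelial cells use the co-receptor endoglin (Eng) to respond to BMP signals. The genes described here are 4 ligands (Bmp2, Bmp4, Bmp6 and Bmp7), the secreted BMP-binding protein Bmper, the co-receptor Eng, the inhibitory SMAD Smad6 and the ID targets Id1, Id2 and Id3. They were chosen by name as BMP ligands, modulators and targets, with earlier results of these data known. Bmp7 was selected on its measured values: it ranked next after Emcn among the genes that were lower in knockout endothelium. Of the 10 genes, 9 stood on lines of the count table with all 8 counts, among 17326 such lines of 22533. The line of Id1 held 7 counts and was left out of all comparisons. The 9 genes all passed the low-count filter, which left 16477 genes.

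The study addressed what loss of endomucin (Emcn), a sialomucin of the endothelial surface, does to the glomerulus. Polyadenylated RNA was sequenced from mouse kidney cells sorted by flow cytometry, in 4 groups of 2 libraries, numbered 2 and 3 in the labels: endothelium of EMCN+/+ mice, endothelium of EMCN-/- mice, podocytes of EMCN+/+ mice and podocytes of EMCN-/- mice. The labels gave no age, sex or strain, no design of the deleted allele and no surface markers for the sort, and did not say whether libraries came from separate animals, so p-values measure only the spread between these libraries.

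The library totals over complete lines ran from 10478956 to 17386042 counts, and levels are given as CPM, which are counts set to an equal library total after scaling by the trimmed mean of M-values. Emcn stood at 1972 and 1828 CPM in wild-type and 173 and 179 CPM in knockout endothelium, in the direction of the labels. Of 11 endothelial markers, 10 were higher in both wild-type endothelium libraries than in both wild-type podocyte libraries, and Cldn5 was lower. In knockout 9 of the 11 were higher, the exceptions being Cldn5 and Plvap, which stood at 1070 and 68.6 CPM in knockout endothelium and 104 and 43.9 CPM in knockout podocytes. All 8 podocyte markers were lower in endothelium in both genotypes. Transcripts of the distal tubule and collecting duct were present in every library, with a summed level over 7 genes between 2707 CPM (knockout endothelium, replicate 2) and 15280 CPM (wild-type endothelium, replicate 3).

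The promoters of 3 target genes are shown because these genes are read as the output of BMP signalling, and 7 of the 10 genes had an entry in the RefSeq promoter table of GRCm38.p6 (the assembly also called mm10). Each sequence runs 5′ to 3′ on the gene's strand and ends at the base before the start site that the table uses, except that of Smad6, which runs 4 bases past it. For Smad6 that start lies inside the RefSeq gene span, whose outer end is at 64022085. Capitals mark a match to either of 2 SMAD-binding motifs, GTCTAGAC and GGCGCC, each of which reads the same on both strands.
Smad6, chr9:64022056-64022309, minus strand: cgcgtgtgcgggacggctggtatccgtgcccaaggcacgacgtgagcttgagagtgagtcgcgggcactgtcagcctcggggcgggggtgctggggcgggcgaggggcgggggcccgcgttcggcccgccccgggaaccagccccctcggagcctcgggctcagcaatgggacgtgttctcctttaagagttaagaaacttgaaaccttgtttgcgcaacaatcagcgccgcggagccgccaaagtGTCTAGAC
Id2, chr12:25096093-25096342, minus strand: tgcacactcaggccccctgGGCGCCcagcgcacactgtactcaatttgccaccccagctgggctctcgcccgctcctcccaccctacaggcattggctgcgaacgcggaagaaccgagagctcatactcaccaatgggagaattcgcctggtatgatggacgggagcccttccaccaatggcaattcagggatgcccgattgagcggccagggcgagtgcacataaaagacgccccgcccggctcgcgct
Id3, chr4:136143572-136143821, plus strand: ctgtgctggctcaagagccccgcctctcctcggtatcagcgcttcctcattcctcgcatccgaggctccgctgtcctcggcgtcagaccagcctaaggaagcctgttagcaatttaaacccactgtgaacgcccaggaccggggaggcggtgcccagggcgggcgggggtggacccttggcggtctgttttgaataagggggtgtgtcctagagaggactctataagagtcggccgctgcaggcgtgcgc

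The 8-base motif GTCTAGAC lay across the start site that the table uses for Smad6, beginning 4 bases before it. Among all 32851 promoter windows of 300 bases in the table, 70 (0.213%) held it, and of the 7 windows of the genes described here 1 did. GGCGCC began 231 bases before the start site of Id2 and was in 1 of the 7 windows, against 3898 (11.9%) of all windows. The Id3 window held neither string. The 3 printed stretches were 66.5% (Smad6), 62.8% (Id2) and 62.8% (Id3) G or C.

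The ligand Bmp7 (Entrez 12162, chromosome 2, 172868012 to 172940321 of GRCm38.p6) was highest in podocytes and low in knockout endothelium. Its low level in knockout endothelium is what chose the gene. It stood at 35.2 and 37.4 CPM in wild-type endothelium and at 12.7 and 15.3 CPM in knockout endothelium (replicates 2 and 3). In podocytes it stood at 117 and 103 CPM in wild type and at 72.1 and 91.7 CPM in knockout. The 4 groups did not overlap, in the order wild-type podocytes, knockout podocytes, wild-type endothelium, knockout endothelium. The mean of the wild-type endothelium pair was 36.3 ± 1.58 CPM (SD, n = 2) and that of the knockout pair 14.0 ± 1.85 CPM (SD, n = 2). The log2 fold change between them was −1.38 (SE 0.23), which is the difference that chose the gene and is given without a test. The genes ranked next to it among those lower in knockout endothelium were Emcn before it, with a log2 fold change of −3.43, and Cluh after it, with −1.03. With each of the 8 libraries left out in turn, the Bmp7 value ran from −1.52 to −1.25. That range describes the same difference that chose the gene and is no support for it.

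**Figure D1:**
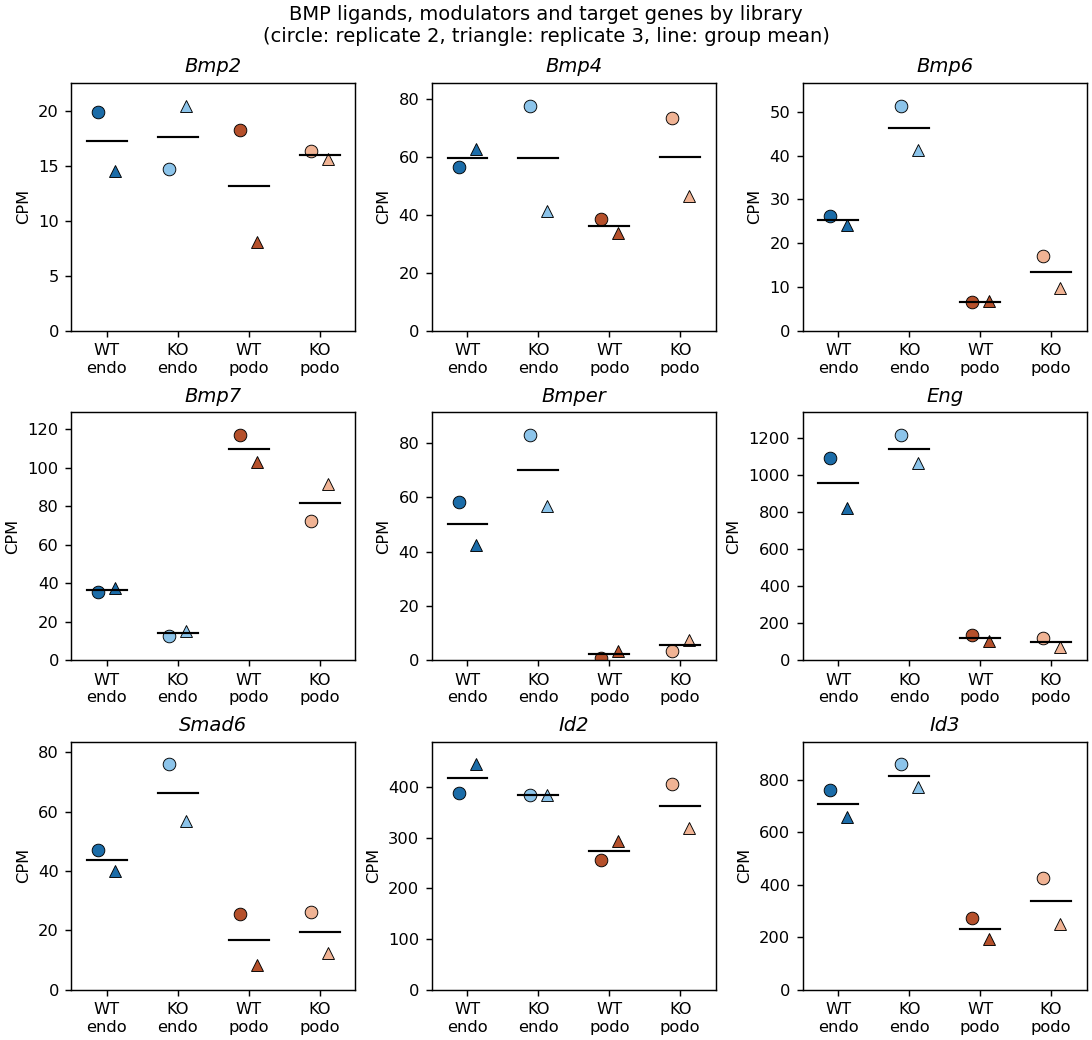
CPM of the 9 genes in each library (vertical axes from 0), by group on the horizontal axis (WT wild type, KO knockout, endo endothelium, podo podocytes), with circles for replicate 2, triangles for replicate 3 and lines for group means of 2 libraries. Bmp7 falls into 4 groups that do not overlap, from 12.7 CPM in knockout endothelium to 117 CPM in wild-type podocytes, while Bmper and Eng are high in all 4 endothelium libraries and low in all 4 podocyte libraries.

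Between cell types, the log2 fold change of Bmp7 in endothelium over podocytes was −1.60 (SE 0.23) in wild type and −2.55 (SE 0.24) in knockout. Both are described without a test, because they use the endothelium libraries that chose the gene. In podocytes the knockout libraries both lay below the wild-type libraries, with a log2 fold change of −0.42 (SE 0.22, edgeR quasi-likelihood test, adjusted p = 0.978), which did not pass the threshold of 0.05. The genotype difference in endothelium minus that in podocytes was −0.95 (SE 0.32) for Bmp7, again as a description.

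Transcripts of other cell types moved with Bmp7 to different degrees. All 8 podocyte markers had a lower mean in knockout than in wild-type podocytes, 4 of them without overlap, against 16% of all genes. Their summed level was 14990 and 9330 CPM in wild-type and 7157 and 8887 CPM in knockout podocytes. In endothelium the podocyte sum was 1915 and 1214 CPM in wild type and 1319 and 1512 CPM in knockout, with overlap. Of the 8 markers 7 had a lower mean in knockout endothelium, and Cd2ap was lower without overlap, at 80.9 and 76.1 against 59.1 and 65.9 CPM, while Kirrel was higher without overlap, at 23.6 and 11.2 against 26.02 and 25.03 CPM. Both were picked out after their values were seen. Of all genes, 19.7% were lower and 24.8% higher in knockout endothelium without overlap. Wild-type endothelium held 33.0% of the Bmp7 level of wild-type podocytes, against a median of 11.1% over the 8 podocyte markers (7.03% for Synpo to 35.3% for Cd2ap). In knockout the Bmp7 share was 17.1%, against a marker median of 14.2% (7.50% to 31.2%).

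Distal tubule and collecting duct transcripts summed to 6753 and 15280 CPM in wild-type and 2707 and 6483 CPM in knockout endothelium, and all 7 genes had a lower mean in knockout. The 2 wild-type libraries stood far apart in this sum and held Bmp7 at 35.2 and 37.4 CPM. Within the list, Calb1 differed less between these libraries (2231 and 2439 CPM) than Umod did (3716 and 9554 CPM). In knockout endothelium Calb1 stood at 556 and 2191 CPM. Replicate 3 of knockout endothelium had nearly the distal sum of replicate 2 of wild-type endothelium, at 6483 against 6753 CPM, and Bmp7 at 15.3 against 35.2 CPM. A further list held immediate-early and stress genes known to respond to tissue dissociation. All 14 had a lower mean in knockout endothelium, 13 of them without overlap, against 19.7% of all genes. Their sum was 40700 and 47150 CPM in wild-type and 25260 and 33460 CPM in knockout endothelium. In knockout podocytes 8 of the 14 had a lower mean and 6 a higher one. There 5 of the 14 were lower without overlap, against 16% of all genes. The part of these transcripts in the Bmp7 values was not tested. In sorted bulk RNA, fewer Bmp7-expressing cells and less Bmp7 RNA per cell cannot be told apart.

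**Figure D2:**
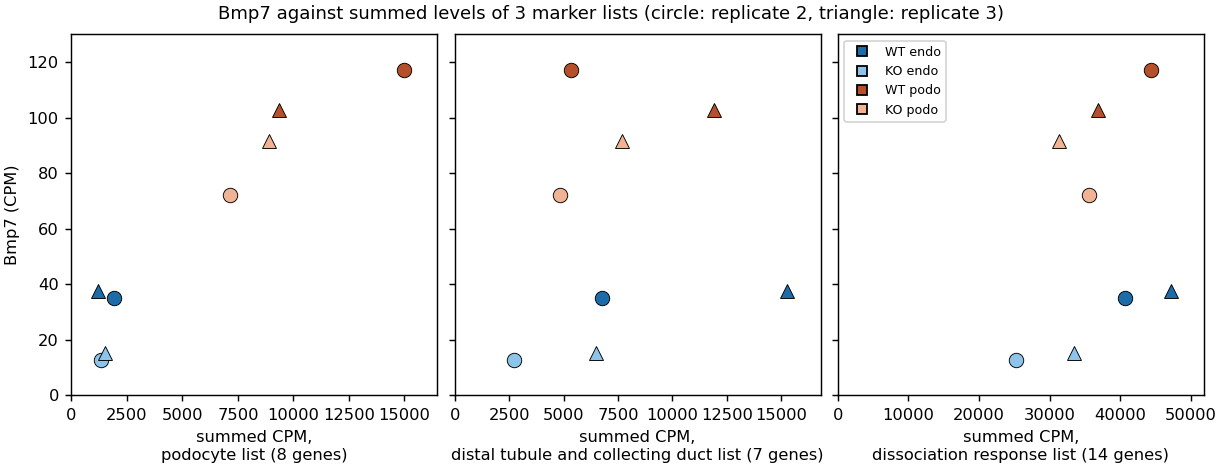
Bmp7 (CPM, vertical axis) against the summed CPM of the podocyte list (8 genes), the distal tubule and collecting duct list (7 genes) and the dissociation response list (14 genes), 1 point per library. In wild-type endothelium (dark blue) Bmp7 is at 35.2 and 37.4 CPM and the distal tubule sum at 6753 and 15280 CPM. The part of the listed transcripts in the Bmp7 values was not tested.

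Over the 8 libraries, the genes whose log2 CPM followed Bmp7 most closely among 10079 others with a mean of at least 5 CPM were a gene without a symbol (Entrez 100861916, Pearson r = 0.995), Trp53bp2 (0.993), Tob1 (0.989), Tspan3 (0.985) and Tpd52 (0.984). Tob1, an antiproliferative protein of the BTG/TOB family, stood at 78.3 and 68.7 CPM in wild-type and 38.1 and 38.0 CPM in knockout endothelium, and at 179 and 162 CPM in wild-type and 152 and 146 CPM in knockout podocytes. These correlations are a description over 8 libraries that fall into 2 cell types.

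Bmp6 (Entrez 12161), a ligand that endothelial cells of the liver make to control iron uptake, had the opposite order to Bmp7 in both respects. It stood at 26.2 and 24.2 CPM in wild-type and 51.4 and 41.2 CPM in knockout endothelium, and at 6.55 and 6.75 CPM in wild-type and 17.1 and 9.81 CPM in knockout podocytes. The knockout libraries lay above the wild-type libraries in both cell types. Bmp6 was higher in endothelium than in podocytes in wild type, by a log2 fold change of 1.92 (SE 0.32, edgeR adjusted p = 0.00302), and in knockout, by 1.78 (SE 0.31, edgeR adjusted p = 0.00435). The log2 fold change with genotype was 0.88 (SE 0.30) in endothelium and 1.02 (SE 0.32, edgeR adjusted p = 0.978) in podocytes. The podocyte value was 0.56 without replicate 2 of the knockout.

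Bmp4 (Entrez 12159), which acts in ureter and nephron development, and Bmp2 (Entrez 12156) were not called in any comparison over all 8 libraries. With only the compared libraries fitted, Bmp4 was called higher in wild-type endothelium than in wild-type podocytes (0.82, edgeR adjusted p = 0.0415), against 0.72 (SE 0.32, edgeR adjusted p = 0.2545) over all libraries. Bmp4 stood at 56.4 and 62.5 CPM in wild-type endothelium, 77.6 and 41.2 CPM in knockout endothelium, 38.6 and 33.7 CPM in wild-type podocytes and 73.4 and 46.6 CPM in knockout podocytes. The podocyte groups did not overlap (log2 fold change 0.73, SE 0.32, edgeR adjusted p = 0.978), while in endothelium the knockout pair enclosed the wild-type pair. Without replicate 2 of the knockout podocytes the podocyte value of Bmp4 was 0.36. In endothelium the genotype value of Bmp4 was 0.00 (SE 0.31) and ran from −0.54 to 0.38 with 1 library left out. By group means, though not by single libraries, Bmp2 was the most even of the 4 ligands. It stood at 19.9 and 14.5 CPM in wild-type and 14.7 and 20.5 CPM in knockout endothelium. In podocytes it stood at 18.2 and 8.06 CPM in wild type and 16.3 and 15.6 CPM in knockout, with overlap in both genotype comparisons.

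Set per kilobase of the longest protein-coding transcript in GENCODE M21, the order of the ligands differed between groups. In wild-type endothelium Bmp4 led with 28.8 ± 2.11 CPM per kb (SD, n = 2), above Bmp7 with 9.89 ± 0.43, Bmp6 with 7.02 ± 0.39 and Bmp2 with 4.85 ± 1.07. In knockout endothelium Bmp4 (28.8 ± 12.5 CPM per kb) was followed by Bmp6 with 12.9 ± 2.01, and Bmp2 (4.95 ± 1.14) and Bmp7 (3.82 ± 0.50) differed by less than the larger SD. In wild-type podocytes Bmp7 led with 29.95 ± 2.75 CPM per kb, above Bmp4 with 17.5 ± 1.69, and Bmp2 (3.70 ± 2.02) and Bmp6 (1.85 ± 0.04) lay within the spread of Bmp2. In knockout podocytes Bmp4 (29.1 ± 9.19 CPM per kb) and Bmp7 (22.3 ± 3.79) were not separated beyond their spread, nor were Bmp2 (4.50 ± 0.14) and Bmp6 (3.74 ± 1.43).

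Bmper (Entrez 73230), which binds BMPs outside the cell and tunes their activity on endothelium, had the largest cell-type difference of the 9 genes over all libraries. It stood at 58.1 and 42.4 CPM in wild-type and 83.0 and 56.9 CPM in knockout endothelium, and at 0.91 and 3.41 CPM in wild-type and 3.29 and 7.6 CPM in knockout podocytes, where the podocyte values rest on 14, 47, 53 and 103 counts. It was higher in endothelium by a log2 fold change of 4.55 (SE 0.58, edgeR adjusted p = 0.00062) in wild type and of 3.69 (SE 0.55, edgeR adjusted p = 0.00165) in knockout. The knockout value of Eng was close, at 3.55 (SE 0.33). With 1 library left out the knockout values ran from 3.19 to 4.40 for Bmper and from 3.23 to 3.94 for Eng. With 1 library left out the wild-type value ran from 3.89 (without replicate 2 of the wild-type podocytes) to 5.78 (without replicate 3), and it stayed called. Its podocyte genotype value of 1.34 (SE 0.56, edgeR adjusted p = 0.978) came from overlapping libraries and ran from 0.62 to 2.56 with 1 library left out.

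Eng (Entrez 13805), the endothelial co-receptor for BMP ligands, stood at 1093 and 821 CPM in wild-type and 1218 and 1065 CPM in knockout endothelium. In podocytes it stood at 136 and 106 CPM in wild type and at 121 and 73.8 CPM in knockout. The genotypes overlapped in both cell types and the cell types did not overlap. The log2 fold change of endothelium over podocytes was 2.98 (SE 0.32, edgeR adjusted p = 0.000209) in wild type and 3.55 (SE 0.33, edgeR adjusted p = 0.000117) in knockout. The endothelial markers other than Cldn5 lay on the same side in wild type, and the summed level over 11 genes was 10430 and 8988 CPM in wild-type endothelium and 1156 and 890 CPM in wild-type podocytes.

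Smad6 (Entrez 17130) is a BMP target whose protein blocks SMAD signalling in a feedback loop. It stood at 47.2 and 40.02 CPM in wild-type and 75.9 and 56.9 CPM in knockout endothelium, without overlap, and at 25.4 and 8.13 CPM in wild-type and 26.2 and 12.4 CPM in knockout podocytes, with overlap. The log2 fold change with genotype was 0.61 (SE 0.48) in endothelium and 0.20 (SE 0.48, edgeR adjusted p = 0.993) in podocytes. Smad6 was higher in endothelium in knockout (1.78, SE 0.49, edgeR adjusted p = 0.0438), and the wild-type difference of 1.38 (SE 0.49) did not pass (edgeR adjusted p = 0.132). The knockout call was lost without either knockout endothelium library, without either wild-type endothelium library and without replicate 3 of the knockout podocytes, with edgeR adjusted p-values between 0.0568 and 0.1755. The wild-type difference passed with DESeq2 (1.40), with only the compared libraries fitted (1.48, edgeR adjusted p = 0.0326), with a replicate block (1.55, edgeR adjusted p = 0.0102) and without replicate 2 of the wild-type podocytes (2.43, edgeR adjusted p = 0.0278), and was 0.78 without replicate 3.

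ID proteins carry a helix-loop-helix domain but no DNA-binding part, and hold back the transcription factors they pair with. Id3 (Entrez 15903) stood at 759 and 658 CPM in wild-type and 859 and 773 CPM in knockout endothelium, and at 274 and 191 CPM in wild-type and 424 and 249 CPM in knockout podocytes. It was higher in endothelium by a log2 fold change of 1.61 (SE 0.31, edgeR adjusted p = 0.00698) in wild type and 1.28 (SE 0.31, edgeR adjusted p = 0.0234) in knockout. Without replicate 3 of the wild-type podocytes the first had an edgeR adjusted p of 0.0853. The second had values between 0.057 and 0.105 without either knockout endothelium library or without replicate 3 of the knockout podocytes, and 0.0569 with only the compared libraries fitted. With genotype Id3 differed by 0.20 (SE 0.30) in endothelium, without overlap, and by 0.53 (SE 0.30, edgeR adjusted p = 0.978) in podocytes, with overlap. The podocyte value ran from 0.10 to 0.87 with 1 library left out.

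Id2 (Entrez 15902) was spread more evenly over the groups. It stood at 390 and 446 CPM in wild-type and 385 and 386 CPM in knockout endothelium, and at 256 and 293 CPM in wild-type and 408 and 320 CPM in knockout podocytes. No comparison called Id2. Its genotype value in endothelium was −0.12 (SE 0.23), with the knockout pair just below the wild-type pair, but 0.22 when scaled by library size only, where the median of all genes moved by 0.33, and 0.05 over genes with a mean of at least 5 CPM. In podocytes it was 0.41 (SE 0.23, edgeR adjusted p = 0.978), with the knockout pair above.

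By cell type, 4 of the 8 genes other than Bmp7 (Bmp6, Bmper, Eng and Id3) were called higher in wild-type endothelium, where 4.26% of all 16477 genes were, and 0 were called lower, where 4.73% of all genes were. In knockout, 5 of the same 8 genes were called higher in endothelium (background 4.28%) and 0 lower (background 6.09%). The comparisons of cell types share their libraries with the genotype comparisons.

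**Figure D3:**
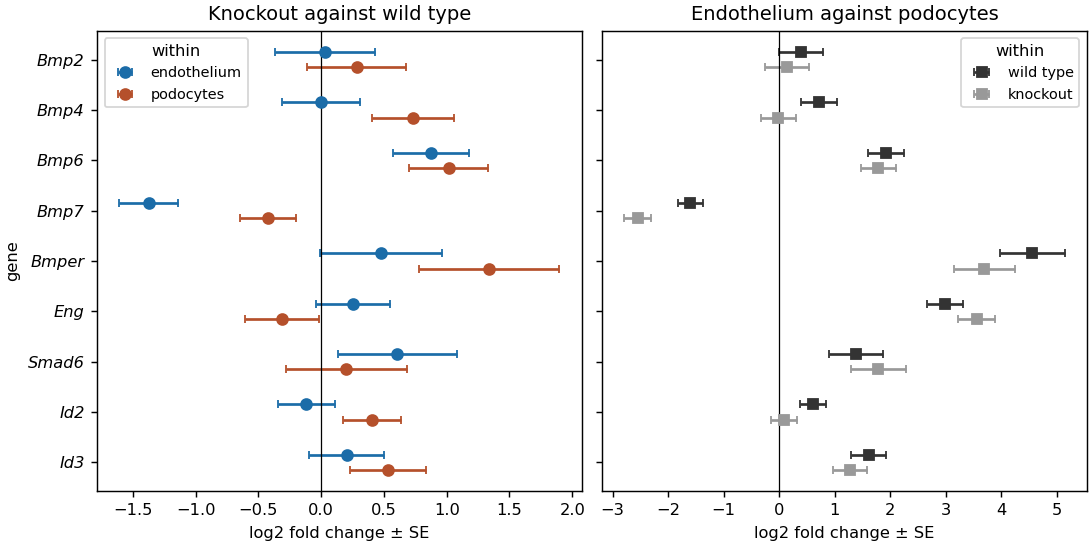
Log2 fold changes with standard errors (horizontal axes) of the 9 genes, for knockout against wild type within each cell type (left) and endothelium against podocytes within each genotype (right). On the left Bmp7 is at −1.38 in endothelium and −0.42 in podocytes and Bmp6 at 0.88 and 1.02, and on the right Bmp7 alone lies well below 0.

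By genotype in podocytes, 0 of the 9 genes were called, against 1 of 16477 genes (0.00607%), which was Emcn. At an unadjusted p under 0.05 there were 3 (Bmp4, Bmp6 and Bmper) by edgeR, against 4.43% of all genes, and DESeq2 and limma voom also called 0 of the 9. Both knockout podocyte libraries lay above both wild-type libraries for 3 of 9 genes (Bmp4, Bmp6 and Id2), as they did for 15.1% of all genes, and below them for 1 (Bmp7), as for 16% of all genes. The median log2 fold change was 0.41 over the 9 genes and 0.02 over all genes. In knockout podocytes 7 of the 9 genes were higher in replicate 2 than in replicate 3, the exceptions being Bmp7 and Bmper, and in each of the other groups 6 of the 9 were. Replicate 2 of the knockout podocytes held more proximal tubule RNA (1059 against 165 CPM, summed over 4 genes) and more mesangial and mural RNA (1252 against 482 CPM over 7 genes), whose part in these values was not tested.

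In the endothelial genotype comparison, from which Bmp7 was chosen, 1 gene (0.00607%), Emcn, was called. Both knockout libraries lay above both wild-type libraries for Bmp6, Smad6 and Id3 (background 24.8% of all genes) and below them for Bmp7 and Id2 (background 19.7%), which is given as a description. Of the 11 endothelial markers 10 also had a higher mean in knockout endothelium, 3 of them without overlap, and their sums overlapped, at 10430 and 8988 CPM in wild type and 11570 and 9462 CPM in knockout. The part of this in the values of Bmp6, Smad6 and Id3 was not tested. In the interaction, the genotype difference in endothelium minus that in podocytes, 0 of the 8 genes other than Bmp7 were called by edgeR, DESeq2 or limma voom, against 0% of all genes. At an unadjusted edgeR p under 0.05 there were 0 of these 8, against 2.6% of all genes.

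The rest of the pathway was read from a list of 52 further ligands, receptors, modulators, SMAD genes and targets, of which 40 were on complete lines and tested. The main BMP receptor genes Bmpr1a, Bmpr1b, Bmpr2, Acvrl1 and Acvr1 were on incomplete lines and were not analysed here. In wild type, 5 of the 40 genes were called higher in endothelium (background 4.26%) and 6 lower (background 4.73%), with a median of 0.03 over the list and −0.01 over all genes. In knockout the counts were 5 (background 4.28%) and 7 (background 6.09%). By genotype 0 of the 40 were called by edgeR in either cell type or in the interaction, with 2 in endothelium, 4 in podocytes and 3 in the interaction at an unadjusted p under 0.05. The shares of all genes at that p were 5.49%, 4.43% and 2.6%.

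Of the 9 target genes in the list, 3 were called higher in endothelium in wild type (background 4.26%) and 0 lower (background 4.73%). In knockout 4 were called higher (background 4.28%) and 1 lower (background 6.09%), which was Atoh8, a transcription factor gene named here after its values were seen (−1.51, SE 0.43, edgeR adjusted p = 0.0478). Msx1, a homeobox gene induced by BMPs, was higher by a log2 fold change of 4.12 (SE 0.61, edgeR adjusted p = 0.00148), with 9.57 and 9.63 CPM in wild-type endothelium and 0.71 and 0.36 CPM in wild-type podocytes. Hey1, a repressor downstream of both Notch and BMP signals, was higher by 2.74 (SE 0.44, edgeR adjusted p = 0.00243), at 47.7 and 31.6 CPM against 7.97 and 3.85 CPM. Smad7, the other inhibitory SMAD, was higher by 1.08 (SE 0.27, edgeR adjusted p = 0.029). Smurf2, a ubiquitin ligase that removes SMADs and receptors, was higher by 1.36 (SE 0.29, edgeR adjusted p = 0.0127).

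The called secreted modulators of this wider list were on the podocyte side, unlike Bmper. Htra1, a secreted protease, was lower in wild-type endothelium by a log2 fold change of −2.83 (SE 0.62, edgeR adjusted p = 0.0151), with 217 and 100 CPM against 1308 and 948 CPM in podocytes. Crim1, a membrane protein with BMP-binding repeats, was lower by −1.45 (SE 0.26, edgeR adjusted p = 0.00515), and Twsg1, which binds BMPs together with chordin, by −1.10 (SE 0.24, edgeR adjusted p = 0.0136). The fourth was Fst, the activin and BMP antagonist follistatin, named here after its values were seen. It stood at 18.5 and 17.9 CPM in wild-type podocytes and at 135 and 22.6 CPM in knockout podocytes, so 1 library carried most of its podocyte genotype value of 2.11 (SE 0.63, edgeR adjusted p = 0.978).

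Of the other ligands, Gdf5, known from joint formation, was lower in wild-type endothelium by −2.86 (SE 0.61, edgeR adjusted p = 0.0138) and Bmp3, which opposes other BMPs, by −2.00 (SE 0.43, edgeR adjusted p = 0.0132). Bmp15, an oocyte growth factor, had 9 and 17 counts in wild-type endothelium, 0 and 0 in wild-type podocytes and 10 and 13 in knockout podocytes. Against a floor set at 3 counts per library its mean was at least 4.64-fold higher in wild-type endothelium, at fewer than 20 counts in each wild-type library. The edgeR adjusted p of 0.0386 tests for any difference, not for that bound.

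**Figure D4:**
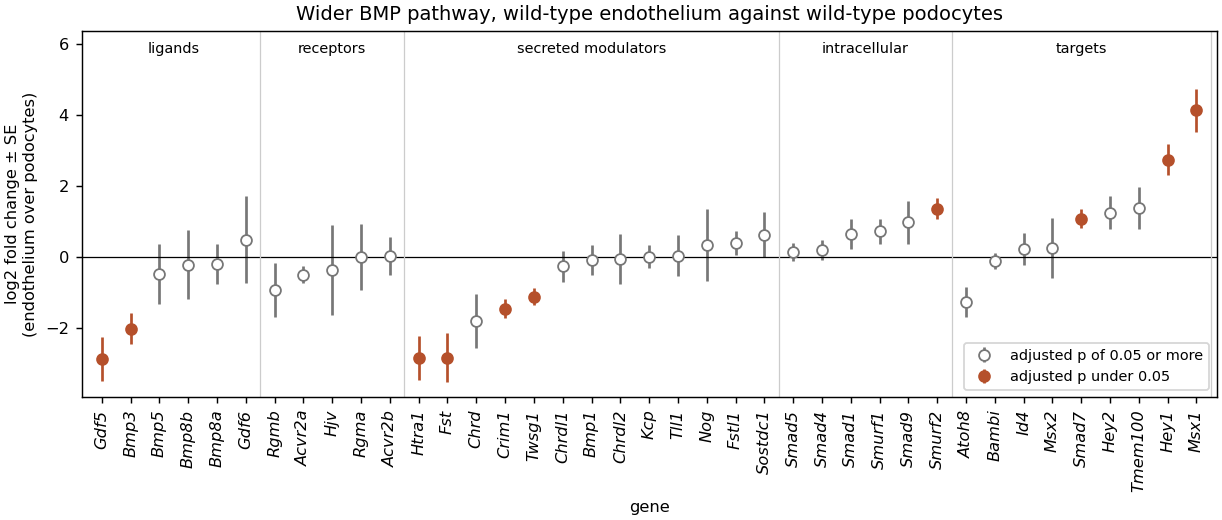
Log2 fold change with standard error (vertical axis) of wild-type endothelium over wild-type podocytes for the wider BMP pathway genes, grouped by role, with filled points for an edgeR adjusted p under 0.05. Bmp15 is left out because both wild-type podocyte counts are 0. The called modulators lie below 0 and the called targets Smad7, Hey1 and Msx1 above it.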

How the data were processed

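The values are whole read counts by Entrez gene, which the authors deposited as 1 table with a column per library, per the file headers. The genome build mm10 and DESeq2 are named in the submitters' processing notes. The aligner, counter, annotation and use of strand are not given in the sources used here. In RefSeq, other genes overlap Bmp4, Bmp6, Bmp7, Bmper and Eng, so reads in the overlaps are uncertain. Lines whose gene description held a comma (5207, 23.11%) lacked counts and were left out. For that reason alone the unit of 3 columns was entered as other, and their deposited values on complete lines were whole counts.

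Counts were fitted with edgeR 4.0.16 (R 4.3.3; filterByExpr, TMM, 4 group means over all 8 libraries, quasi-likelihood F test) across all genes, with Benjamini-Hochberg adjustment over 16477 genes and a threshold of 0.05. Standard errors are the log2 fold change over the square root of F. Log2 CPM used a prior count of 2. Alternatives used limma 3.58.1, DESeq2 1.42.0, other scalings and filters, a replicate block, the compared libraries alone and each library left out; a fit that left 1 library in a group assumes it varies like the others. The test was checked on simulated data.

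The genes, lists and markers were chosen with earlier results of these data known. Named were all members, Emcn, called pathway genes (in the wild-type cell-type comparison up to 3 of smallest p per role and direction) and the 5 genes most correlated with Bmp7. The same ranking for Id1 was not made. Markers were checked for endothelium, podocytes, proximal and distal tubule, mesangial and mural cells, fibroblasts, immune cells and the dissociation response. All 5 erythroid markers were absent from complete lines.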

Additional observations from a re-analysis of the deposited data

Results flagged for a closer look

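Id1, an ID family gene commonly read as a BMP target, had signal in data outside the comparisons. Its line of the count table held 7 of 8 counts, from 479 to 2664, and which library each belongs to is not stated there, so the values were not assigned to groups. In the interaction test 0 genes differed between the cell types in their genotype effect at an edgeR adjusted p under 0.05, with 428 at an unadjusted p under 0.05.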

How the results depend on the processing

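Of 720 values of single genes under an alternative, 678 kept their direction and side of the threshold, or moved by less than 1 SD where untested. A value uncalled in both fits counted as kept if its direction held. An untested value could change sign within 1 SD, as Bmp2 did in endothelium by genotype (0.03 to −0.015 with DESeq2 size factors in edgeR). Scaling by library size only moved the median of all genes by 0.33 in endothelium by genotype, 0.11 in podocytes, 0.28 between knockout cell types and 0.21 in the interaction (log2). Bmp7 was then −1.05, Bmp6 1.21 and Id2 0.22 in endothelium by genotype, and Bmp6 0.077 in the interaction. Genes called by genotype, 1 in each cell type, became 0 in both with library size only or a mean of at least 5 CPM, and 4 (endothelium) and 8 (podocytes) with DESeq2. In podocytes the count was 0 with limma voom and with only the libraries compared. Bmp4 between knockout cell types was −0.01 and became 0.29, 0.15 and 0.013 with library size only, a mean of at least 5 CPM and only the libraries compared.

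With each library left out, genes called ran from 0 to 1 by genotype in each cell type, from 769 to 1672 between wild-type cell types (fewest without replicate 2 of the wild-type podocytes; 922 without replicate 3 of the wild-type endothelium) and from 960 to 1809 between knockout cell types (960 and 1115 without replicates 2 and 3 of the knockout endothelium, 1079 without replicate 2 of the knockout podocytes). Called members other than Bmp7 in knockout ran from 3 to 5. Uncalled or untested values that changed sign ran, for Bmp2, from −0.23 to 0.26 (endothelium by genotype), −0.19 to 1.01 (podocytes by genotype), −0.082 to 1.11 (wild-type cell types), −0.12 to 0.35 (knockout cell types) and −0.96 to 0.21 (interaction). For Smad6 they ran from −0.44 to 1.28 (podocytes by genotype) and −0.65 to 1.04 (interaction), for Bmp4 from −0.54 to 0.38 (endothelium by genotype) and −0.55 to 0.36, and Id2 from −0.089 to 0.26 (knockout cell types), and for Bmp6 from −0.49 to 0.31 and Id3 from −0.67 to 0.10 (interaction). The causes were not tested.

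Replicate numbers were shared between groups, with correlations of same-numbered deviations of 0.188 and 0.157 by genotype (endothelium, podocytes) and −0.129 and 0.111 between cell types (wild type, knockout). With the replicate block 1831 and 2241 genes were called between cell types, 1 by genotype in each, and Smad6 in wild type passed (1.55, edgeR adjusted p = 0.0102). With the podocyte numbers swapped, an alternative chosen after seeing the data, 1357 genes were called, and Smad6 was not among them.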

Other observations

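Sostdc1, a secreted antagonist of BMP ligands that distal tubule cells make, was picked out after its values were seen. It stood at 237 and 548 CPM in wild-type and 90.6 and 247 CPM in knockout endothelium (replicates 2 and 3), and at 185 and 321 CPM in wild-type and 100 and 361 CPM in knockout podocytes. Replicate 3 was the higher in each group, as it was for Umod, Calb1 and Pvalb of the distal tubule and collecting duct list. Umod, a gene of the thick ascending limb, stood at 3716 and 9554 CPM in wild-type and 1317 and 3611 CPM in knockout endothelium. Aqp2, Aqp3, Fxyd4 and Hsd11b2 of that list were higher in replicate 2 in both knockout groups. Aqp2 stood at 529 and 300 CPM in knockout endothelium and 1803 and 469 CPM in knockout podocytes.

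Twsg1, also picked out after its values were seen, had the order of Bmp7 within endothelium, at 207 and 240 CPM in wild type and 129 and 142 CPM in knockout (log2 fold change −0.72, SE 0.24, edgeR adjusted p = 0.716). In podocytes it stood at 476 and 487 CPM in wild type and 562 and 417 CPM in knockout, with overlap. Of the other marker lists, in the endothelium libraries the 7 mesangial and mural genes summed to between 309 and 665 CPM, the 3 immune genes on complete lines summed to between 23.5 and 49.4 CPM, the 2 fibroblast genes to between 5.65 and 33.3 CPM and the 4 proximal tubule genes to between 72 and 125 CPM.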
